A study of Mus musculus with 37 samples.

Results

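Lactic acid bacteria and bifidobacteria of mouse stool were followed as 4 genera, Lactobacillus, Enterococcus, Streptococcus and Bifidobacterium. Their members were every row of the deposited taxonomy that carried one of these genus names: 284 of 6100 sequence variants, in 4 of 432 genera. A sequence variant is 1 distinct amplicon sequence with its read count in each library. Together the members held 6.06% of the reads. Lactobacillus supplied 254 variants and 943290 reads, Bifidobacterium 13 variants and 24999 reads, Enterococcus 11 variants and 7416 reads, and Streptococcus 6 variants and 2324 reads.

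Amplicons of the bacterial 16S rRNA gene came from mouse stool in 37 libraries; the offspring were adolescent per the series title and their dams were C57Bl/6. Control dams drank water for the whole pregnancy; dams of the prenatal alcohol exposure (PAE) group drank 10% ethanol over the initial 10 days of pregnancy and water from then on. There were 11 libraries of control males and 7 of control females, against 10 and 9 in PAE, so the design asks whether PAE changed the stool bacteria of each sex. No source used here gives dam, litter, cage or exact age, and p-values therefore measure only the spread between these libraries. Libraries are named by their group and label number: controls carry numbers 1 to 10 and 30 to 37, and PAE libraries 11 to 29. What these 4 runs of numbers (1 to 10, 11 to 19, 20 to 29 and 30 to 37) stand for is not stated. Each held both sexes and only 1 exposure. The borders between 10 and 11 and between 29 and 30 are changes of exposure. The labels mark no border between 19 and 20, which are both PAE males. That border was set for this report, and Enterococcus had 0 reads in PAE male 19 and 405 in PAE male 20. Totals ranged from 102672 to 1813237 reads, with medians of 230299 reads in libraries 1 to 10, 208798 in 11 to 19, 502266 in 20 to 29 and 652046 in 30 to 37.

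Lactic acid bacteria ferment sugars mainly to lactate, and bifidobacteria form acetate and lactate by a pathway of their own. In mice, lactobacilli live attached to the lining of the forestomach and are shed along the whole gut, which makes them regular stool bacteria. Enterococcus is an early coloniser of the newborn gut, Streptococcus lives mainly in the mouth and upper gut, and Bifidobacterium grows on plant and milk sugars in the large intestine.

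Lactobacillus supplied most of the members' reads. Its share of reads ran from 0.380% to 10.6% (median 2.90%) in control males, from 0.235% to 7.38% (median 1.28%) in PAE males, from 4.63% to 11.99% (median 7.33%) in control females and from 2.09% to 16.4% (median 4.33%) in PAE females. Females lay above most males in either exposure, and the groups of 1 sex overlapped. The other 3 genera stayed under 1% of reads in every library except PAE male 25. Shares are not cell numbers, since genera differ in 16S rRNA gene copies. Within a genus, fewer cells and a rise of other bacteria cannot be told apart in shares of reads.

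**Figure D1:**
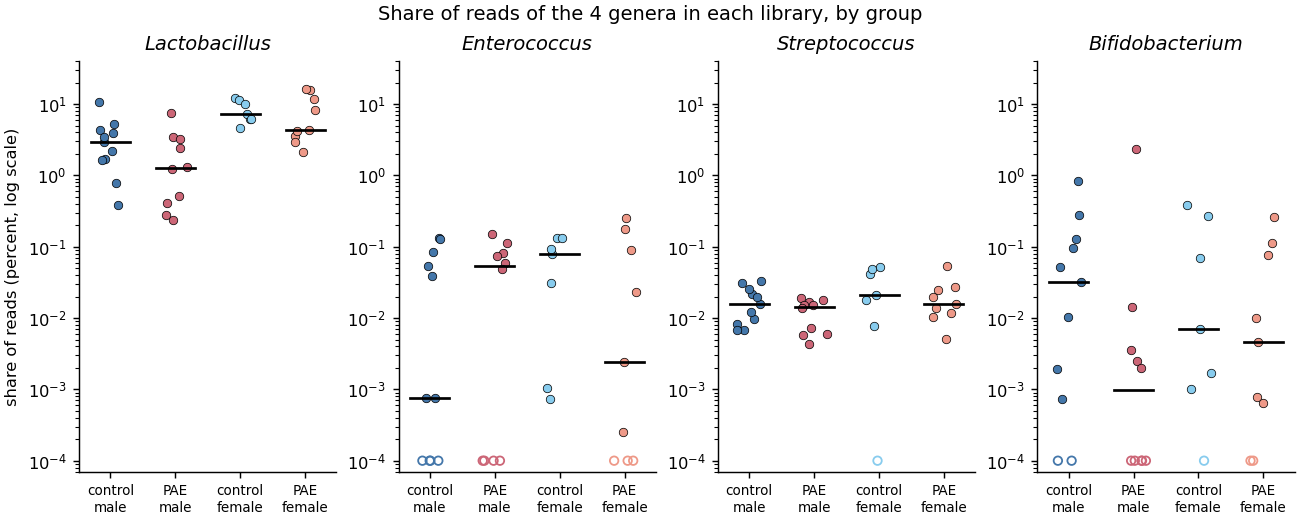
Share of reads (percent, log scale) of the 4 genera in each of 37 libraries, by group; filled points are libraries, open points at the bottom are libraries with 0 reads, and bars are group medians. Lactobacillus medians are 2.90% and 1.28% in control and PAE males and 7.33% and 4.33% in control and PAE females, and Bifidobacterium of PAE male 25 stands at 2.32%.

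The plot of shares by group shows the spread against which PAE and control were compared. In males, 0 of the 4 genera passed the test (edgeR quasi-likelihood F-test over 112 genera, Benjamini-Hochberg adjusted p under 0.05), while 11.6% of all genera did. None of the 4 had an unadjusted p under 0.05, against 27.7% of all genera. Their log2 fold changes (PAE over control) were -0.45 (SE 0.56) for Lactobacillus, 1.29 (SE 1.54) for Enterococcus, -0.19 (SE 0.66) for Streptococcus and 0.96 (SE 1.69) for Bifidobacterium, with edgeR adjusted p from 0.624 to 0.859. The median over the 4 was 0.39, against -0.28 over all 112 genera. In females edgeR likewise called 0 of 4, against 2.68% of all genera, and 0 of 4 had an unadjusted p under 0.05, against 10.7%. There the values were -0.32 (SE 0.64) for Lactobacillus, -0.22 (SE 1.75) for Enterococcus, -0.76 (SE 0.75) for Streptococcus and -1.30 (SE 1.93) for Bifidobacterium, with edgeR adjusted p from 0.918 to 0.970. All 4 of these directions turned with the run of controls. Lactobacillus was at 0.19 against controls 1 to 10 alone. Enterococcus, Streptococcus and Bifidobacterium were at 5.33, 1.70 and 2.76 against controls 30 to 37 alone, which held only 2 females. Control female 30 had 5, 0 and 7 reads of these 3 genera in that order, and control female 34 had 19, 140 and 126. The difference of the effect between the sexes was called in 0 of 4 genera, against 3.57% of all genera, with 0 of 4 at an unadjusted p under 0.05, against 10.7% (edgeR adjusted p from 0.645 to 0.969).

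**Figure D2:**
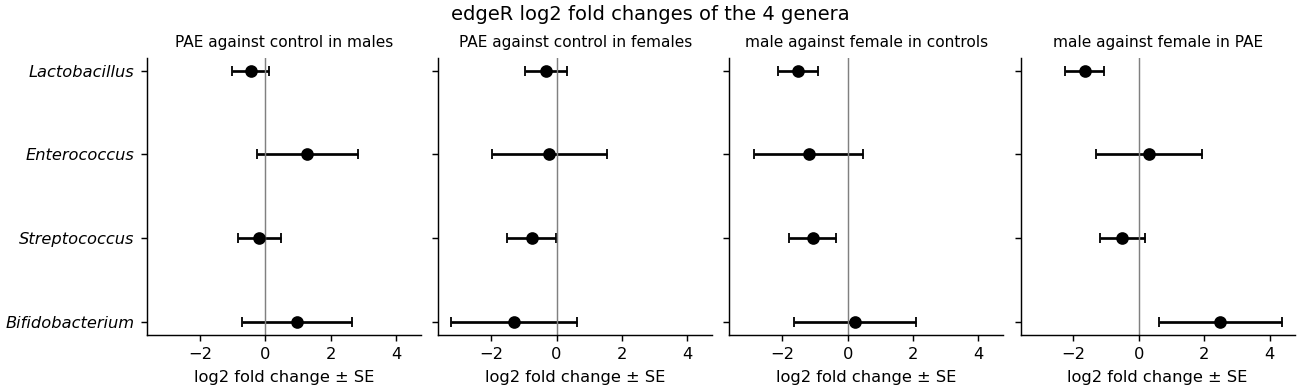
Log2 fold changes (points) and standard errors derived from the F statistic (bars) of the 4 genera from edgeR, in 4 comparisons. Values right of the grey line at 0 are higher in PAE, or in males. The Lactobacillus bars of both comparisons of males with females lie left of 0, at -1.52 and -1.65.

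Lactobacillus had a lower mean share in males than in females of either exposure. Its mean share was 3.38% ± 2.82 (SD, n = 11) in control males against 8.22% ± 2.84 (n = 7) in control females, and 2.05% ± 2.23 (n = 10) in PAE males against 7.70% ± 5.58 (n = 9) in PAE females. Of 11 control males 9 lay below every control female, and 6 of 10 PAE males lay below every PAE female. The log2 fold change of males over females was -1.52 (SE 0.60) in controls and -1.65 (SE 0.59) in PAE, as the plot of fold changes shows. Neither passed over 112 genera: edgeR adjusted p was 0.147 in controls, with 0 of 4 genera called against 4.46% of all, and 0.179 in PAE, with 0 of 4 against 0.0%. Lactobacillus was the 1 of 4 genera with an unadjusted p under 0.05 in each (0.0158 and 0.00799), which 12.5% and 8.04% of all genera reached. DESeq2 called 0 of 4 in both comparisons as well, against 9.82% and 1.79% of all genera.

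Over both exposures, a comparison added after the data were seen, Lactobacillus was lower in males. Its mean share was 2.88-fold higher in the 16 females than in the 21 males, 19 of 21 males lay below the female median, and 10 lay below every female. The 2 males above that median were control male 33 (10.6%) and PAE male 25 (7.38%). The log2 fold change was -1.59 (SE 0.42, edgeR adjusted p = 0.0399), the single call among the 4 genera, against 3.57% of all genera in either direction and 2.68% in this one. An unadjusted p under 0.05 was reached by the same 1 of 4 and by 13.4% of all genera. The call held in 18 of 37 fits that each left out 1 library. It was lost without control male 1, 2, 7 or 35, PAE male 16, 17, 18, 20, 23 or 24, control female 3, 4, 8, 9 or 10, or PAE female 13, 14, 15 or 29, with edgeR adjusted p from 0.0503 to 0.104 and the same direction.

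The sex difference of Lactobacillus had the same direction in each run of library numbers. Mean shares in males and females were 2.66% ± 1.64 (n = 5) and 7.26% ± 2.81 (n = 5) in libraries 1 to 10, and 1.60% ± 1.61 (n = 4) and 6.91% ± 5.24 (n = 5) in libraries 11 to 19. They were 2.35% ± 2.67 (n = 6) and 8.69% ± 6.64 (n = 4) in libraries 20 to 29, and 3.99% ± 3.58 (n = 6) and 10.6% ± 0.949 (n = 2) in libraries 30 to 37. Two-sided exact permutation tests of these 4 differences gave p of 0.00794, 0.0714, 0.0524 and 0.0714, or 0.0317, 0.0714, 0.0714 and 0.0714 after adjustment over the 4 runs; 0.00794 is the smallest p that 5 against 5 allows. These 4 tests were chosen after the data were seen and were run on Lactobacillus alone. They, and the limma fit with runs below, use the border between 19 and 20, which the labels do not give. Exact permutation tests of the mean share over 112 genera gave Lactobacillus an adjusted p of 0.294 in controls and 0.315 in PAE. With the runs as a random block in limma on centred log-ratios, Lactobacillus was called lower in males in controls (-2.52, adjusted p = 0.0489) and in PAE (-2.36, adjusted p = 0.0471). In each of these 2 comparisons it was the only 1 of 112 genera called (0.893%). Over both exposures, the comparison added after the data were seen, the difference was -2.44, with an adjusted p of 0.000363 in the same limma fit. There too Lactobacillus was the only 1 of 112 genera called (0.893%).

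Among species names, L. murinus and L. reuteri, 2 lactobacilli of the rodent gut, held 29.6% and 31.7% of Lactobacillus reads, and variants without a species name held 33.6%. For all 3 the mean share was higher in females. L. reuteri held 0.993% ± 1.99 of reads in control males, 0.712% ± 0.915 in PAE males, 2.72% ± 1.01 in control females and 2.27% ± 1.38 in PAE females. Of 21 males 15 lay below every female for L. reuteri, yet control male 33 held 6.81%, above every female. L. murinus held 1.38% ± 1.57, 0.569% ± 0.321, 2.15% ± 2.41 and 1.40% ± 0.959 in the same order of groups, and 7 of 21 males lay below every female. The nameless variants held 0.999% ± 1.12, 0.767% ± 1.23, 2.98% ± 1.78 and 4.03% ± 3.41, with 12 of 21 males below every female. Over both exposures the edgeR log2 fold changes of males over females were -1.72 (SE 0.67) for L. reuteri, -1.13 (SE 0.47) for L. murinus and -2.03 (SE 0.70) for the nameless variants. Their adjusted p were 0.172, 0.205 and 0.1004 over 190 species groups, so that none passed; 0 of 8 member groups were called, against 0.526% of all, and 4 of 8 had an unadjusted p under 0.05, against 12.1%. DESeq2 called the nameless variants (10.0% of all species groups called), limma called these and L. reuteri (1.05%), and edgeR with a looser filter called B. animalis (7.1%). In controls and PAE taken singly edgeR called 0 of 8 between the sexes, against 3.68% and 0.0% of all species groups, with 1 and 2 of 8 at an unadjusted p under 0.05, against 8.95% and 7.37%. For the difference of the PAE effect between the sexes it called 0 of 8, against 2.63%, with 1 of 8 at an unadjusted p under 0.05, against 10.5%.

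Of the 8 member species groups tested, L. murinus had the largest log2 difference between PAE and control males. Its share ran from 0.194% to 5.11% (median 0.713%) in control males and from 0.147% to 1.17% (median 0.545%) in PAE males. The 2 groups overlapped, and 1 of 10 PAE males lay below every control. The log2 fold change of -1.38 (SE 0.64) had an unadjusted edgeR p of 0.0360 and an adjusted p of 0.172. Against controls 1 to 10 alone it was 0.88 (edgeR adjusted p = 0.584), a change of sign, and against controls 30 to 37 alone -1.87 (edgeR adjusted p = 0.0188, where 21.1% of species groups were called). The 2 sets of controls thus gave opposite directions. In females the value was -0.97 (SE 0.71, edgeR adjusted p = 0.689). It turned from 0.35 to -2.59 in the same way (edgeR adjusted p 0.980 and 0.0245, the latter where 9.71% of species groups were called). Controls 30 to 37 held only 2 females, and 1 of them, control female 30, had 7.19% L. murinus, the highest of the control females (next 3.22%). Across the 8 member species groups tested, edgeR called 0 in males, against 13.2% of all species groups, and 1 in females, against 9.47% in either direction and 3.16% higher. An unadjusted p under 0.05 was reached by 1 of 8 in each sex, against 23.7% and 15.3% of all species groups. The call in females concerned Streptococcus variants without a species name.

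Other Lactobacillus species names were rare or patchy. L. johnsonii, another rodent lactobacillus, had 47108 reads in 4 libraries and was not tested. Control female 34 held 45936 of them, 2.53% of its reads; the others were control males 36 and 37, with 1160 reads between them, and PAE male 20 with 12. L. apodemi (69 reads in 15 libraries) and L. taiwanensis (52 reads in 3) stayed below the filter, as did the variants named gut_metagenome, mouse_gut and uncultured_bacterium with 6, 2 and 24 reads. The group named bacterium_ii1348 (104 reads in 17 libraries) was tested and not called between PAE and control, with log2 fold changes of -0.44 (SE 1.22) in males and -0.88 (SE 1.38) in females.

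A few sequence variants made up most of the genus. Of 254 Lactobacillus variants, 236 occurred in 1 library each with 8262 reads in all, and 10 passed the filter of 5 reads in 7 libraries. Over all 4 genera 14 of 284 variants passed, with 90.2% of the members' reads. Variants are numbered within a genus by their mean share over the 37 libraries. Lactobacillus variants 1 (no species name), 2 (L. murinus) and 3 (L. reuteri) occurred in all 37 libraries and held 30.99%, 25.8% and 20.7% of Lactobacillus reads. Variant 1 led the genus in 20 libraries, variant 2 in 15 and variant 3 in 2. Variant 1 led in 8 of 9 PAE females, 5 of 7 control females, 4 of 11 control males and 3 of 10 PAE males, and in 0 of the 8 libraries numbered 30 to 37, where variant 2 led in 7.

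**Figure D3:**
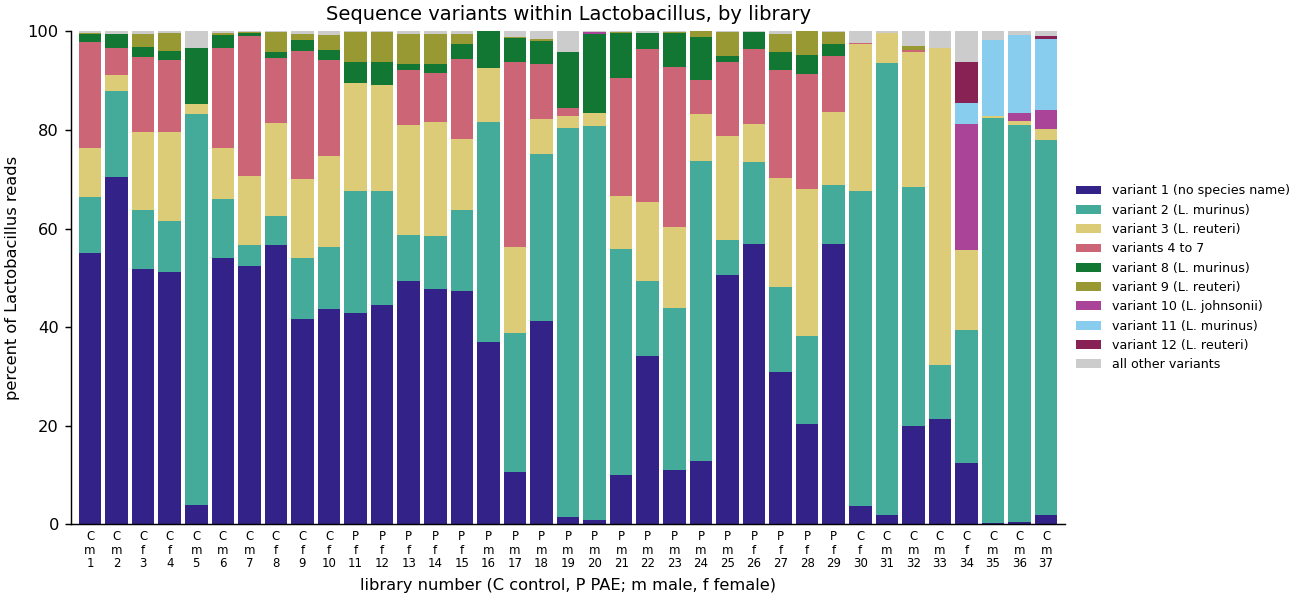
Percent of the Lactobacillus reads of each library held by its main sequence variants (stacked bars, in library order; C control, P PAE, m male, f female). Variant 1 leads in 20 libraries, variants 4 to 7 appear together or not at all in most libraries, and libraries 30 to 37 lack variants 6, 7 and 8.

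The share of variant 1 within Lactobacillus, a ratio that does not move with other genera, differed between the sexes in PAE. It was 21.02% ± 17.9 (SD, n = 10) of Lactobacillus reads in PAE males, with a range of 0.894% to 50.5% and a median of 11.95%. In PAE females it was 44.1% ± 11.8 (n = 9), with a range of 20.4% to 57.0% and a median of 47.3%. The ranges overlapped, and the difference of -23.1 percentage points passed (two-sided exact permutation p = 0.00614, 0.0246 adjusted over 4 comparisons). With PAE libraries 11 to 19 alone it was -23.7 (exact permutation test, adjusted p = 0.0317), and with PAE libraries 20 to 29 alone -21.3 (adjusted p = 0.457). In controls the share was 25.6% ± 27.1 (n = 11) in males and 37.3% ± 20.7 (n = 7) in females (exact permutation, adjusted p = 0.561). PAE and control differed by -4.61 percentage points in males and by 6.79 in females (permutation tests, adjusted p 0.653 and 0.561). Both directions turned with the run of controls. Against controls 30 to 37 alone the difference was 13.4 in males and 35.9 in females (exact permutation tests, adjusted p 0.156 and 0.0364). Those controls held only 2 females, at 3.84% and 12.5%, both below every PAE female, so that 0.0364 stems from the smallest p that 9 against 2 allows. Against controls 1 to 10 alone the differences were -26.2 and -4.87 (adjusted p 0.0699 and 0.571). Within a run, the mean of control males and that of control females were 47.2% ± 25.3 (n = 5) and 48.98% ± 6.14 (n = 5) in libraries 1 to 10 and 7.66% ± 10.2 (n = 6) and 8.17% ± 6.13 (n = 2) in libraries 30 to 37. Whether the sex difference of PAE and that of controls differ was not tested.

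Lactobacillus variants 4 to 7 came and went as a set. Variants 4, 5 and 6 carry the name L. reuteri and variant 7 has no species name. All 4 had reads in 22 libraries and none had any in 11, while 4 libraries held 1 or 2 of them with 18 to 35 reads in all. Over the 21 libraries with at least 100 reads of variant 4, the reads of variants 5, 6 and 7 were 0.856 ± 0.063, 0.832 ± 0.090 and 0.812 ± 0.080 (SD) times those of variant 4. For variant 3, also L. reuteri, that ratio was 3.30 ± 1.70. Its highest value was 5.08 times its lowest, against 1.29, 1.65 and 1.53 times for variants 5, 6 and 7. The set held up to 37.67% of Lactobacillus reads, in PAE male 17. It was complete in 9 of 10 libraries numbered 1 to 10, where control male 5 lacked it, and in 0 of 8 numbered 30 to 37. PAE females 11 and 12 and PAE males 16 and 20 also had 0 reads of it. Between PAE and control the 4 log2 fold changes ran from 0.95 to 1.08 in males and from -0.31 to -0.22 in females (edgeR adjusted p from 0.828 to 0.857 and 0.987).

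Several other Lactobacillus variants were tied to runs of library numbers. Variant 8 (L. murinus) had reads in all 29 libraries numbered 1 to 29 and in 0 of the 8 numbered 30 to 37. Variant 11 (also L. murinus) had 7919, 2819, 5186 and 2148 reads in control libraries 34 to 37 and 0 elsewhere. Variants 10 (L. johnsonii) and 12 (L. reuteri) were found in control libraries 34, 36 and 37, and variant 10 also in PAE male 20. Variant 15 (L. reuteri) had 5939 reads, all in control female 34. Every control from 34 to 37 thus held L. murinus sequences that no other library held. The cause of these patterns was not tested.

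**Figure D4:**
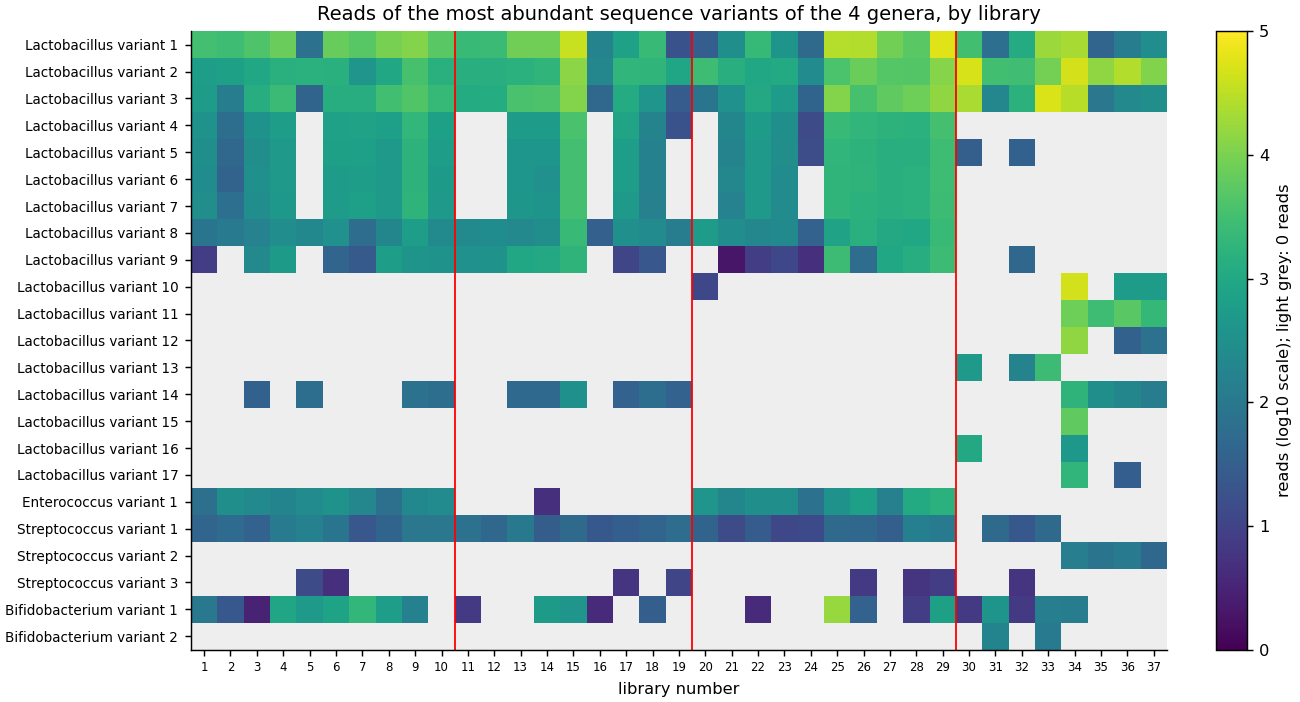
Reads (log10 color scale; light grey is 0 reads) of the 23 leading sequence variants of the 4 genera (rows) in each library (columns, by library number); red lines separate the runs of numbers. Lactobacillus variants 1 to 3 fill all 37 columns, Lactobacillus variant 8 stops at library 29, and Lactobacillus variant 11 and Streptococcus variant 2 occur only in libraries 34 to 37.

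Variant by variant, edgeR called 0 of the 14 tested members between PAE and control in males, against 12.1% of 553 variants, and 0 in females, against 12.3%. An unadjusted p under 0.05 was reached by 2 of 14 in males and 1 of 14 in females, against 21.9% and 17.9% of all variants. The 2 in males were Lactobacillus variant 2 (-1.57, SE 0.77, edgeR adjusted p = 0.220) and Lactobacillus variant 9 (3.58, SE 1.64, edgeR adjusted p = 0.191). Neither direction held under every setting. Variant 2 was at 0.75 against controls 1 to 10 alone. PAE male 25 held 2668 of the 2729 variant 9 reads of PAE males, the other 9 had 61 reads together against 123 in the 11 control males, and without that library the value was -0.34 (edgeR adjusted p = 0.921). Between the sexes 12 of 14 variants had a lower fitted level in males in controls, and 12 of 14 in PAE. The median log2 fold change of the 14 was -1.82 in controls and -1.14 in PAE, against 0.36 and -0.40 over all 553 variants. The share of all variants lower in males was not counted. Of the 14, 10 belong to Lactobacillus, and Lactobacillus variants 4 to 7 came and went as a set, so the 14 are not independent. In each comparison edgeR called 0 of 14, against 0.904% and 0.0% of all variants. An unadjusted p under 0.05 was reached by 2 and 1 of 14, against 9.4% and 5.61%. Over both exposures edgeR called 0 of 14, against 0.181%, with 4 of 14 at an unadjusted p under 0.05, against 10.7%. For the difference of the PAE effect between the sexes it called 0 of 14, against 0.0%, with 1 of 14 at an unadjusted p under 0.05, against 12.3%. Lactobacillus variant 9, which carries the name L. reuteri, came nearest to a call in controls (-5.78, SE 1.86, edgeR adjusted p = 0.0984). Among controls it had reads in 5 of 7 females (227 to 643 reads) and in 4 of 11 males (8 to 46 reads). Control females 30 and 34 had 0 reads of it, so the sexes overlapped.

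Enterococcus divided the libraries by their numbers. All 20 libraries numbered 1 to 10 and 20 to 29 held 69 to 1563 reads of it, or 0.0233% to 0.251% (median 0.0876%). All 17 numbered 11 to 19 and 30 to 37 held 0 to 19 reads, at most 0.00239%, and 11 of these had 0 reads, which allows shares of up to 0.000444% to 0.00196%. The 2 sets did not overlap; Enterococcus was the 1 of 112 genera (0.893%) for which that was so. This split, which includes the border between 19 and 20, was chosen after the values were seen, and no test is given. Variant 1 held 99.1% of Enterococcus reads and was found in 21 libraries: the 20 above and PAE female 14, with 5 reads. The other 10 variants had 1 to 19 reads each.

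**Figure D5:**
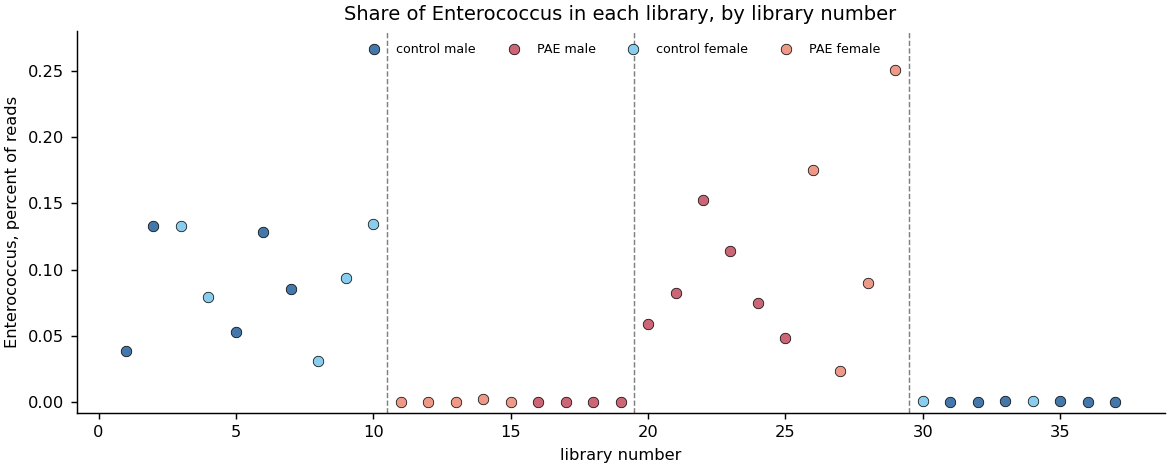
Share of Enterococcus reads (percent) in each library, by library number, with dashed lines at the borders of the runs. The 20 libraries numbered 1 to 10 and 20 to 29 lie between 0.0233% and 0.251%, and the 17 others at 0.00239% or lower.

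As the plot of Enterococcus by library number shows, each exposure had 1 run with the genus and 1 nearly without it. In males the mean share was 0.0877% ± 0.0427 (n = 5) in controls 1 to 10 and 0.0887% ± 0.0386 (n = 6) in PAE libraries 20 to 29. It was 0.000255% ± 0.000394 (n = 6) in controls 30 to 37, and all 4 PAE males numbered 11 to 19 had 0 reads. In females it was 0.0944% ± 0.0428 (n = 5) and 0.135% ± 0.0993 (n = 4) in the runs with the genus. The pooled fold change of PAE over control males therefore turned with the runs used: 1.29 with all libraries, -0.39 against controls 1 to 10 alone (edgeR adjusted p = 0.943) and 7.66 against controls 30 to 37 alone (edgeR adjusted p = 0.0437, where 17.9% of genera were called). With PAE libraries 11 to 19 alone, whose 4 males had 0 reads, the share was at least 30.2-fold lower than the mean of all 11 control males, with each PAE male set at 3 reads (edgeR adjusted p = 0.246). The mean of control males 30 to 37 alone, 0.000255%, lay below the mean of these PAE limits, 0.00133%. Against those controls no lower level is shown. Run and exposure cannot be told apart between controls and PAE, since each run held 1 exposure.

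Streptococcus was found in 36 of 37 libraries at low levels. Its share ran from 0.00678% to 0.0328% (median 0.0160%) in control males, from 0.00433% to 0.0190% (median 0.0144%) in PAE males, from 0% to 0.0511% (median 0.0208%) in control females and from 0.00516% to 0.0537% (median 0.0158%) in PAE females. All 4 ranges overlapped. The mean share was 0.0301% ± 0.0136 in libraries 1 to 10, 0.0223% ± 0.0128 in 11 to 19, 0.0103% ± 0.00529 in 20 to 29 and 0.00964% ± 0.00605 in 30 to 37. It moved against depth: Spearman's rho with the total reads was -0.56 over 37 libraries, which differ in run as well as depth. The part of depth in the other Streptococcus values was not tested beyond the fits with depth as a covariate.

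S. danieliae, a streptococcus first described from the mouse gut, held 96.3% of Streptococcus reads, in 2 sequence variants that never shared a library. Variant 1 had 1845 reads in 32 libraries. Variant 2 had 392 reads, 140, 84, 122 and 46 in control libraries 34 to 37, which lacked variant 1. These are the 4 libraries that also held Lactobacillus variant 11. Control female 30 had 0 reads of either, which allows a share of up to 0.000433%.

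Streptococcus variants without a species name were the only member species group called between PAE and control by edgeR. They had 87 reads in all: 33 reads in 6 of 9 PAE females, 0 in 7 control females, 30 in 4 of 11 control males and 24 in 5 of 10 PAE males. The mean share in PAE females, 0.00116% ± 0.00168, was at least 1.05-fold higher than in control females when each control female is set at the 3 reads that a count of 0 allows (edgeR adjusted p = 0.0448). DESeq2 did not call it, while it called 8.95% of all species groups. In fits that each left out 1 library the edgeR adjusted p ran from 0.0444 to 0.136. The call was lost without control male 6 or 32, PAE male 16, 22 or 24, any 1 of the 7 control females (3, 4, 8, 9, 10, 30 and 34), or PAE female 11, 14, 15, 26, 28 or 29. Sphingomonas, a genus often met as a trace of reagents, moved in the same way: it had 0 reads in control females, but 64 reads over 8 of the 9 PAE females, at least 2.15-fold higher by the same limit (edgeR adjusted p = 0.0203). Of the 10 genera listed as usual in reagents or on skin, 8 were in the table and 4 were tested. In females edgeR called 1 of the 4, Sphingomonas, against 2.68% of all genera, and in males 0 of the 4, against 11.6%. The others tested went either way in females. Log2 fold changes were 1.24 for Staphylococcus, -1.11 for Pseudomonas and -0.14 for Burkholderia-Caballeronia-Paraburkholderia (edgeR adjusted p 0.960, 0.960 and 0.970). The part of such traces in the Streptococcus result was not tested.

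Bifidobacterium was patchy, with 0 reads in 10 of 37 libraries, which allows shares of up to 0.000439% to 0.00292%. Nearly all of its reads (99.5%) were B. pseudolongum, a bifidobacterium of the animal gut, and B. animalis had 12 reads in 2 libraries. Its share ran from 0% to 0.837% (median 0.0317%) in control males and from 0% to 2.32% (median 0.000985%) in PAE males. It ran from 0% to 0.380% (median 0.00695%) in control females and from 0% to 0.261% (median 0.00458%) in PAE females. The groups overlapped, and 1 library, PAE male 25, held 17223 of the 24999 reads.

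In the edgeR fit of all libraries the sign of the difference in males turned with that library. The other 9 PAE males held 0% to 0.0140%, 5 of them at 0 reads. With PAE male 25, the log2 fold change from edgeR was 0.96 (SE 1.69, adjusted p = 0.744). Without that library it was -5.95 (edgeR adjusted p = 0.0270). The share of all genera called was 11.6% with all libraries and was not counted for the fit without PAE male 25. DESeq2 with all libraries gave -4.83 (adjusted p = 0.00443) and called 16.5% of genera; limma with all libraries gave -2.19, and edgeR with controls 1 to 10 alone -0.043. A share of at least 0.01% was reached by 2 of 10 PAE males and 7 of 11 control males (two-sided Fisher's exact test p = 0.0805, 0.273 adjusted). The runs moved with this too: control males held 0.254% ± 0.341 (n = 5) in libraries 1 to 10 and 0.0271% ± 0.0510 (n = 6) in 30 to 37. In PAE males the 4 libraries from 11 to 19 held 0% to 0.0140%. In females the same share was reached by 3 of 9 PAE and 3 of 7 control libraries (Fisher's exact test p = 1.0). Variant 1 held 98.3% of the genus reads in 24 libraries. Variant 2, also B. pseudolongum, had 179 and 108 reads in control males 31 and 33 and none elsewhere.

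The 4 genera did not move closely together. Among the 6 pairs, the highest Spearman correlation of shares over 37 libraries was 0.41, between Lactobacillus and Bifidobacterium. Among 108 other genera, Lactobacillus shares were most like those of Monoglobus (0.51), WD2101_soil_group (0.47) and Massilia (0.46). Enterococcus was most like [Clostridium]_innocuum_group (0.62), Nitrosomonas (0.61) and Lachnoclostridium (0.58), and Streptococcus like Gastranaerophilales (0.54), [Eubacterium]_coprostanoligenes_group (0.52) and Incertae_Sedis (0.49). Bifidobacterium had the highest value of these, 0.72 with Dubosiella, followed by GCA-900066575 (0.58) and Clostridia_UCG-014 (0.57). These are descriptions; all points share the library's total and its run.

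Neighbours of the members in taxonomy and metabolism were compared in the same fit. Besides the 4 genera, the order Lactobacillales had 1 genus in the table, with 4 reads. Of 47 other genera of the phylum Actinobacteriota, to which Bifidobacterium belongs, 5 were tested and edgeR called 0 in males and 0 in females, against 11.6% and 2.68% of all genera, with 3 and 1 at an unadjusted p under 0.05, against 27.7% and 10.7%. The 3 in males were Coriobacteriaceae_UCG-002 (-3.97, edgeR adjusted p = 0.105), an unclassified genus of Eggerthellaceae (-3.47, edgeR adjusted p = 0.105) and Parvibacter (-2.98, edgeR adjusted p = 0.128). Of 10 genera listed as users of lactate, which lactic acid bacteria release, 4 were in the table and 2 were tested, Anaerostipes and Desulfovibrio; edgeR called 0 in either sex, and 0 had an unadjusted p under 0.05. Anaerostipes, which turns lactate into butyrate, was at 2.94 on the log2 scale (SE 1.96, edgeR adjusted p = 0.331) in males. Of 4 genera listed as bacteria of food or dairy, 0 were in the table.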

How the data were processed

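The authors deposited raw counts, not normalized: the number of reads of each sequence variant in every library. Taxon names come from a second deposited table. Per the labels, V3–V4 amplicons of stool DNA were sequenced on an Illumina NovaSeq in paired-end mode with 250 cycles per read. Tools and build in the submitters' processing notes are cutadapt, Bowtie2 and GRCm39, with no role; denoiser, classifier and reference database: not given in the sources used here. Titles and descriptions swap the library names of 2 control males; both readings give the same group.

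Of 6100 rows, 6085 were kept; plastid, mitochondrial, eukaryotic and unassigned rows were left out. Counts summed by genus, species and variant were kept where 7 or more libraries held 5 or more reads, and fitted across all features with edgeR 4.0.16 (R 4.3.3): TMM scaling, 4 group means, quasi-likelihood F-test, Benjamini-Hochberg adjusted p under 0.05. A script tested on simulated counts ran these fits. The edgeR fit prints no standard errors, so each SE given for it is the absolute log2 fold change divided by the square root of F. Alternatives were limma 3.58.1 on centred log-ratios (also with the runs as a random block), DESeq2 1.42.0, and other scalings, filters and sets of libraries. Single shares were tested by permutation or Fisher's exact test (SciPy 1.17.1). Named taxa were the 4 genera, their tested species groups, the leading variants and the 3 genera most alike in shares over the libraries. Members, lists and tests were chosen with earlier results of these data known. PCR reads are not independent molecules, so limits from 0 counts, set at 3 reads, cover counting error only. Depth ran from 102672 to 1813237 reads.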

Additional observations from a re-analysis of the deposited data

Results flagged for a closer look

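In 24 groups of 7 to 10 libraries, the highest or lowest library was set against the others by its gap relative to the group's range. In 7 groups 1 library stood apart. For normally distributed values chance flags about 1 in 20 groups; these shares are skewed and several groups share reads, so that no chance rate is known for them. The 11 control males are too many for this rule and were not tested. PAE male 25 stood apart in 3 of them: Lactobacillus at 7.38% of reads (next highest 3.49%), Lactobacillus without a species name at 3.99% (next 1.36%) and Bifidobacterium at 2.32% (next 0.0140%). PAE female 11 had 0.0537% Streptococcus (next 0.0270%) and 0.0485% S. danieliae (next 0.0270%). PAE female 14 had 0.261% Bifidobacterium (next 0.113%). Control female 30 had 7.19% L. murinus (next 3.22%). All 7 were high, not low.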

How the results depend on the processing

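Values are log2 fold changes unless named otherwise, given where a setting changed the sign or the call; the cause was not tested. No paired analysis was possible because each library number occurs once, so that no groups share a number. The split by male and female over both exposures, the fit without PAE male 25 and PAE female 26 and the tests within runs were chosen after seeing the data. Controls 30 to 37 alone held only 2 females.

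Lactobacillus between the sexes kept its direction in every fit. With the runs as a random block in limma (consensus correlation 0.374) it was called in controls (-2.52) and PAE (-2.36). Over both exposures its call was lost with controls 1 to 10 alone (-1.83), controls 30 to 37 alone (-2.01), PAE 11 to 19 alone (-1.96) and PAE 20 to 29 alone (-1.67), which use fewer libraries; single libraries left out gave -1.79 to -1.46. PAE against control in females became 0.19 with controls 1 to 10 alone. The difference between the sexes in the PAE effect became 0.036 with limma, 0.16 with limma and the runs as a block, 0.051 with the stricter filter, 0.50 with controls 30 to 37 alone and 0.34 with depth as a covariate, and -0.54 to 0.26 with single libraries left out.

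Enterococcus in males became -0.39 with controls 1 to 10 alone, 7.66 with controls 30 to 37 alone and -10.09 with PAE 11 to 19 alone, a fitted value against 0 reads and no bound. In females it became 5.33 with controls 30 to 37 alone, 1.23 with PAE 20 to 29 alone, 0.10 with all rows, 0.67 with depth as a covariate and 0.00089 with only the libraries compared, and -0.83 to 0.27 with single libraries left out. The difference between the sexes became -2.60 with PAE 11 to 19 alone. Males against females in PAE became -0.18 with library totals, -0.16 with DESeq2, -0.14 with the stricter filter, -0.30 and -0.23 with controls 1 to 10 and 30 to 37 alone, -3.83 and -0.72 with PAE 11 to 19 and 20 to 29 alone, -0.29 with the block, -0.31 with depth, -0.065 with only the libraries compared, -0.18 for the mean share, and -0.066 to 0.92 with single libraries left out.

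Streptococcus in males became 0.23 with limma and 0.14 with the block. In females it became 0.55 with limma, 0.82 with the block and 1.70 with controls 30 to 37 alone. The difference between the sexes became -0.11 with library totals, -0.32 with limma, -0.67 with the block and -1.72 with controls 30 to 37 alone, and -0.028 to 0.83 with single libraries left out. Males against females in controls became 0.84 with controls 30 to 37 alone and 0.25 with the block.

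Bifidobacterium in males became -4.83 with DESeq2, -2.19 with limma, -2.42 with the block, -0.043 with controls 1 to 10 alone, -4.96 with PAE 11 to 19 alone and -5.95 without PAE male 25 and PAE female 26; single libraries left out gave -5.95 to 2.44. In females it became 2.76 with controls 30 to 37 alone. In the same order (DESeq2, limma, block, PAE 11 to 19 alone, without the 2 libraries), the difference between the sexes became -3.57, -0.96, -1.89, -4.15 and -4.79 (single libraries left out, -4.65 to 3.71), males against females in PAE -3.59, -1.39, -1.55, -3.88 and -4.55 (-4.41 to 3.59), and over both exposures -1.81, -0.91, -0.60, -1.81 and -2.15 (-2.08 to 1.97). In controls it became -0.027 with DESeq2 and -0.43 with limma (-0.90 to 1.44). It had no value under the stricter filter, and the difference between the sexes none with only the libraries compared.

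With controls 1 to 10 alone, L. murinus became 0.88 in males and 0.35 in females, Lactobacillus variant 2 0.75 and 0.23, Lactobacillus variant 9 -0.0033 in females, L. reuteri 0.34 in males and Streptococcus without a species name -0.39 in males. Lactobacillus variant 9 in males became -0.33 without PAE male 25 and PAE female 26, and -0.34 (without PAE male 25) to 4.07 with single libraries left out. With PAE 20 to 29 alone L. reuteri became 0.081 in males and 0.031 in females and Streptococcus without a species name -0.37 in males. L. reuteri in males became 0.87 with limma, and single libraries left out gave -0.85 to 0.97; for Streptococcus without a species name they gave -0.043 to 0.84 in males and 4.33 to 5.31 in females.

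Counts of members called changed as follows, with the share of all features called in brackets. Genera in males went from 0 to 1 with DESeq2 (16.5%), with controls 30 to 37 alone (17.9%) and without PAE male 25 and PAE female 26 (18.2%); genera between the sexes in controls and in PAE from 0 to 1 with the block (0.893% in each); genera over both exposures from 1 to 0 in the 4 fits with 1 run of controls or PAE. Species groups in males were 2 of 16 with the looser filter (35.3%), 2 of 7 with controls 30 to 37 alone (21.1%) and 1 of 8 without the 2 libraries (16.1%); in females 2 of 16 with the looser filter (19.1%) and 0 with DESeq2, limma, the stricter filter, controls 1 to 10 alone, either PAE run alone and without the 2 libraries; over both exposures 1 of 8 with DESeq2 (10.0%), 2 of 8 with limma (1.05%) and 1 of 16 with the looser filter (7.1%). Variants in males were 1 of 14 with limma (17.2%), 8 of 27 with the looser filter (47.6%), 6 of 13 with controls 30 to 37 alone (29%) and 1 of 13 with PAE 20 to 29 alone (22.6%); in females 9 of 27 with the looser filter (38.5%) and 2 of 13 with controls 30 to 37 alone (9.74%). Between the sexes in controls they were 1 of 14 with DESeq2 (4.7%) and 1 of 27 with the looser filter (1.16%); over both exposures 2 of 14 with DESeq2 (5.61%) and with limma (0.362%), 2 of 27 with the looser filter (4.15%) and 1 of 14 without the 2 libraries (0.554%). Leaving out single libraries moved 7 of these counts between 0 and 1.

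Shares of libraries holding a genus, in percentage points, turned for Enterococcus in males (-45.5, PAE 11 to 19 alone), in females (28.6, PAE 20 to 29 alone) and between the sexes in PAE (-2.22, threshold 0.1%), for Streptococcus in males (36.4, PAE 11 to 19 alone) and between the sexes in controls (14.3, threshold 0.001%), and for Bifidobacterium between the sexes in controls (-13.0 and -1.30, thresholds 0.001% and 0.1%). The share of variant 1 in Lactobacillus became 13.4 in males and 35.9 in females with controls 30 to 37 alone (the latter called, exact permutation test, adjusted p = 0.0364), -4.87 in females with controls 1 to 10 alone and -21.3 between the sexes in PAE with PAE 20 to 29 alone.

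Depth limits the 3 rarer genera, of which Streptococcus has 2324 reads in all; a library at 0 reads bounds their share only at 0.000433% to 0.00292%.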
